A study of Homo sapiens with 6 samples.

Results

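The proteasome genes of a human colorectal cancer cell line were compared between libraries labelled control siRNA and libraries labelled siRNA against the lncRNA GLCC1. The members were every gene symbol made of PSM, a letter from A to G and a number, apart from PSMB8 and PSMB9, which gave 46 of the 56638 gene symbols in the count tables. They encode the subunits of the proteasome, the chaperones that assemble it, the activators that dock on its ends and 1 inhibitor. RNA sequencing had been performed on 3 libraries per group, and the question was how the transcriptome of the cells differed after GLCC1 knockdown. The control group received a nonspecific siRNA. The other group received siRNA to lncRNA-AF339830, the lncRNA that the study names GLCC1, and the labels name no other agent for either group. The labels give SW480, a line from a colon adenocarcinoma, as the cells of all 6 libraries, whereas the study's methods name DLD-1, another colorectal adenocarcinoma line, for the sequencing.

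The labels conflict with each other on the conditions. The titles, which set the groups here, were at odds with the library names, in which the libraries titled as controls carried a name built on AF and those titled as GLCC1 siRNA a name built on NC. The titles end in siRNA1, siRNA2 or siRNA3 in each group, and these endings were read here as replicate numbers. The genotype labels read siRNA1 in the libraries titled as GLCC1 siRNA. The study used GLCC1 siRNAs numbered 1 and 2, so whether the 3 libraries received the same siRNA could not be told. The study states in general that its biological replicates were independent and collected separately. Nothing tied this to the 3 libraries of a group as separate cultures, so that all p-values measure the spread between these libraries. GLCC1 has no symbol in the tables, and its knockdown could not be checked by its own count. Directions are therefore given for the libraries as titled, and every one of them would turn if the library names held the true conditions. Between 11948790 and 19042516 read pairs per library were assigned to genes. The libraries expressed the epithelial genes EPCAM, CDH1, VIL1, CDX2, KRT8, KRT18 and KRT19, the colon keratin KRT20 was below 1 CPM (counts per 1000000 counts on genes) on average in both groups, and PTPRC, COL1A2, DCN, PECAM1 and CDH5, which mark leukocytes, fibroblasts and endothelium, had 0 counts, while CD3E had at most 1 count per library. Of the other markers of those cells, COL1A1 had a mean of 13.4 CPM in the controls and 7.38 CPM in the GLCC1 siRNA libraries, and CD14, PDGFRB and VWF were below 5 CPM. Of the 8 epithelial markers, 5 were called lower in the GLCC1 siRNA libraries: KRT8, at 1177 CPM against 3584 CPM in the controls, KRT18, KRT19, CDH1 (log2 fold change -0.53) and EPCAM (-0.30). VIL1 (0.21), CDX2 (-0.24) and KRT20 (-0.92) were not called, with every GLCC1 siRNA library above the controls in VIL1 and below them in CDX2. Their part in the results was not tested. GLCC1 siRNA replicate 2 stood apart: it was the shallowest library, and 14.2% of its read pairs lay in no gene against 11.2 to 12.7% in the other 5.

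The proteasome degrades proteins that carry ubiquitin chains. Its 20S core is a barrel of stacked rings, with outer rings of alpha subunits that gate the pore and inner rings of beta subunits, some of which cut the substrate. The 19S regulatory particle caps the barrel: its ATPases unfold the substrate and thread it inward, and its non-ATPase subunits bind and remove ubiquitin. The PA28 activators open the gate without ubiquitin. In cells exposed to interferon, PSMB8, PSMB9 and PSMB10 replace the constitutive catalytic subunits to form the immunoproteasome, which favours peptides for antigen presentation. When proteasome activity falls short, the transcription factor encoded by NFE2L1 is known to raise the transcription of most subunit genes together.

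Most core and cap subunits were lower in the libraries labelled GLCC1 siRNA, while the PA28 genes PSME1 and PSME2 and the immunoproteasome gene PSMB10 were higher. Of the 44 members with enough counts to be tested, 24 fell and 4 rose (edgeR quasi-likelihood test, Benjamini-Hochberg adjusted p under 0.05 over 23074 genes), and 16 were not called. Over all tested genes, 16.7% were called lower and 14.9% higher. Among genes with a mean of 10 CPM or more, the range of most members, these shares were 29.8% and 20.1%, and 24 of the 41 members at that level fell and 3 rose. In 28 of those 41 members all 3 GLCC1 siRNA libraries lay below all 3 control libraries, an order found in 37.8% of all genes at that level, and in 4 they lay above, an order found in 26.2%. The median log2 fold change of the 44 members was -0.29, beside 0.03 for all tested genes and -0.07 for those at 10 CPM or more. Per library, the median of the members relative to the control mean was -0.03 to 0.03 in the controls and -0.32 to -0.27 in the GLCC1 siRNA libraries. The members together took 0.523 to 0.544% of the gene counts in the controls and 0.473 to 0.488% in the GLCC1 siRNA libraries, and the groups did not overlap. From bulk RNA, a change in every cell and a change in a share of the cells cannot be told apart.

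**Figure D1:**
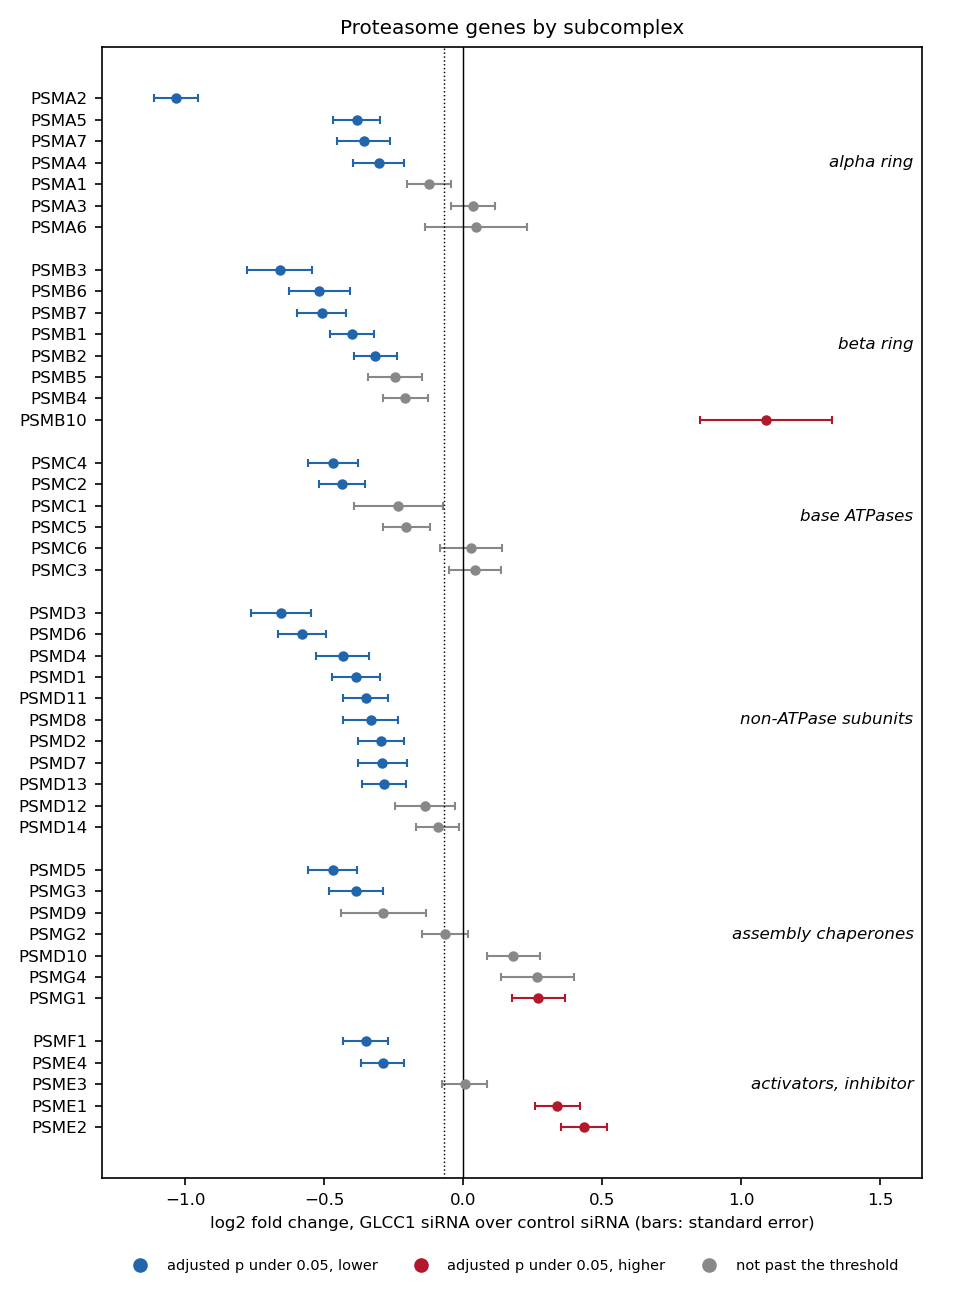
Log2 fold change of each tested proteasome gene, GLCC1 siRNA minus control siRNA, by role in the complex, with bars for 1 standard error (n = 3 libraries per group) and colour for the call at adjusted p under 0.05. The dotted line is the median of genes with a mean of 10 CPM or more (-0.07). Most subunits lie left of it, with PSMA2 the farthest at -1.03, and PSMB10, PSME2 and PSME1 lie to the right of 0.

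In the alpha ring, whose subunits frame the entrance of the barrel, 4 of 7 tested genes fell and none rose. Of all genes at 10 CPM or more, 29.8% fell and 20.1% rose. PSMA2, the alpha2 subunit (chr7:42956427-42971784 in GRCh37, minus strand), had 173, 163 and 171 CPM in the control libraries and 85.7, 81.4 and 80.4 CPM in the GLCC1 siRNA libraries. Its mean fell from 169 ± 5.15 to 82.5 ± 2.82 CPM (SD, n = 3 per group), the largest fall among the members (-1.03 on the log2 scale, standard error 0.08, edgeR adjusted p = 6.7e-07). The libraries within each group were close together and the groups far apart. PSMA4, PSMA5 and PSMA7 also fell, with log2 fold changes of -0.30, -0.38 and -0.36. PSMA1, PSMA3 and PSMA6 were not called, at -0.12, 0.03 and 0.05. PSMA8, a subunit of the testis, had 0 counts in all 6 libraries, which allows at most 0.156 to 0.239 CPM per library by counting error alone. The fall of PSMA2 was larger than that of its partners. Its CPM was divided by the median CPM of the other core 20S subunits in the same library, leaving out PSMA6, PSMA8, PSMB10 and PSMB11. On that scale PSMA2 was at 0.917 to 0.969 in the controls and 0.507 to 0.602 in the GLCC1 siRNA libraries. Every exon base of its canonical transcript in GENCODE 44 also belongs to a readthrough gene on the same strand, and reads shared by 2 genes are set aside by the counting. That annotation is not the one used for counting, and the part of such reads in the fall of PSMA2 was not tested.

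PSMA6 gave 2.92 to 3.97 CPM in the controls and 3.47 to 3.98 CPM in the GLCC1 siRNA libraries, with overlapping groups. Its level was low for an obligate subunit. In GENCODE 44, 81.4% of its exon bases also belong to a readthrough gene on its strand, as do 67.0% of those of PSMA1. The pseudogene PSMA6P1 took 80.1% of the counts of the pair in the controls and PSMC1P1 took 91.8% of those of PSMC1 and its copy. Summed with its copy, PSMA6 was lower, with 17.4, 17.8 and 18.5 CPM in the controls and 14.4, 13.1 and 13.6 CPM in the GLCC1 siRNA libraries (log2 fold change -0.38, standard error 0.11, edgeR adjusted p = 0.015). The sum was still below the CPM of each of the other tested alpha subunits. The summed PSMC1 pair gave 164, 150 and 165 CPM against 138, 154 and 140 CPM, and was not called (log2 fold change -0.15, standard error 0.08, edgeR adjusted p = 0.19). The sums were chosen after the data were seen, and the values of PSMA6 and PSMC1 on their own are uncertain.

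**Figure D2:**
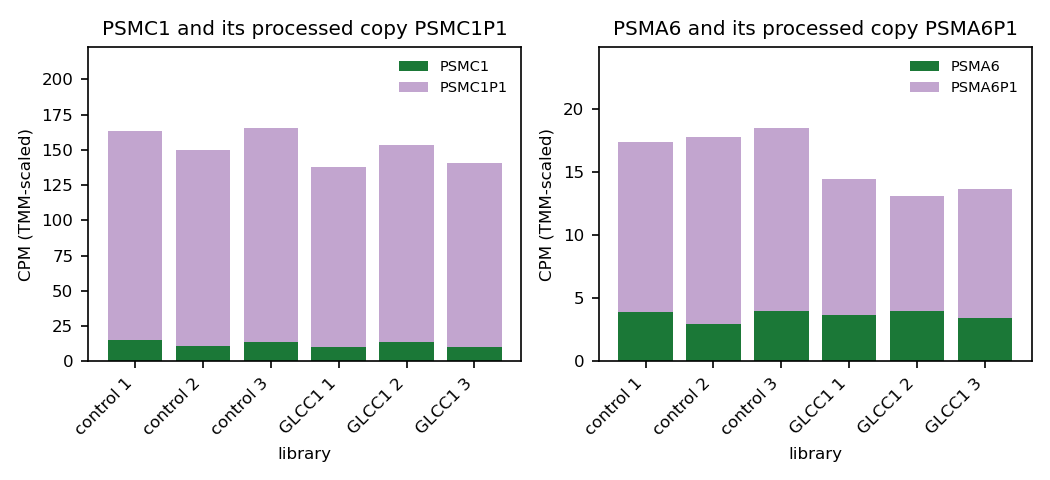
Stacked bars of CPM in each of the 6 libraries for PSMC1 with its copy PSMC1P1 (left) and PSMA6 with its copy PSMA6P1 (right), so that the height of a bar is the sum of the pair. The copies hold most of the counts, and the sum of PSMA6 and PSMA6P1 was lower in the 3 GLCC1 siRNA libraries (13.1 to 14.4 CPM) than in the 3 controls (17.4 to 18.5 CPM).

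The beta ring carries the catalytic sites. Of its 8 tested genes 5 fell and PSMB10 rose, beside 29.8% and 20.1% of all genes at 10 CPM or more. PSMB3, a structural subunit, had 145, 155 and 164 CPM in the controls and 109, 77.5 and 107 CPM in the GLCC1 siRNA libraries (log2 fold change -0.66, standard error 0.12, edgeR adjusted p = 0.00072). Replicate 2 was its lowest library, and the groups did not overlap. PSMB6, the constitutive caspase-like subunit, had 102, 104 and 106 CPM against 78.4, 59.2 and 79.8 CPM, a fall of the same shape (log2 fold change -0.52, standard error 0.11). PSMB7, the trypsin-like subunit, fell with a log2 fold change of -0.51, and the structural subunits PSMB1 and PSMB2 fell with -0.40 and -0.32. PSMB5, the chymotrypsin-like subunit and the main target of proteasome inhibitors in the clinic, had a log2 fold change of -0.25 and was not called (edgeR adjusted p = 0.069), and PSMB4 had -0.21 (edgeR adjusted p = 0.067). In both, every GLCC1 siRNA library was below every control. The thymus subunit PSMB11 had 0 counts in all libraries, with the same limit as PSMA8.

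PSMB10, the immunoproteasome counterpart of PSMB7, went the opposite way at a far lower level. It had 17, 34 and 29 counts in the controls and 79, 40 and 53 in the GLCC1 siRNA libraries, which is 1.17, 1.87 and 1.75 CPM against 4.12, 3.18 and 2.96 CPM. The mean rose from 1.6 ± 0.38 to 3.42 ± 0.61 CPM (SD, n = 3 per group), a log2 difference of 1.09 (standard error 0.24, edgeR adjusted p = 0.0030). PSMB7 had a mean of 202 CPM in the controls and 142 CPM in the GLCC1 siRNA libraries, far above PSMB10 in both groups. In GENCODE 44, 56.1% of the exon bases of PSMB10 also belong to a readthrough gene on its strand.

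The ATPases form the ring that pulls substrates into the barrel. PSMC4 had 95.6, 91.7 and 101 CPM in the controls and 72.2, 63.1 and 72.8 CPM in the GLCC1 siRNA libraries (log2 fold change -0.47, standard error 0.09, edgeR adjusted p = 0.0013), and its groups were well apart. PSMC2 fell by 0.44 on the log2 scale. The remaining ATPases were not called, with log2 fold changes of -0.23 for PSMC1, 0.04 for PSMC3, -0.20 for PSMC5 and 0.03 for PSMC6. PSMC3, the highest of them by fold change, had 107, 98.7 and 113 CPM against 109, 99.3 and 120 CPM, with overlapping groups. Over the 32 tested subunits of the core and the cap, the log2 fold changes ran from -1.03 for PSMA2 to 1.09 for PSMB10, with a median of -0.31.

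The non-ATPase subunits were all below 0, and 9 of 11 fell. Of the 10378 genes at 10 CPM or more, 5832 were below 0 and 29.8% fell. PSMD3, a scaffold subunit of the lid, had 184, 195 and 181 CPM in the controls and 132, 96.0 and 127 CPM in the GLCC1 siRNA libraries (log2 fold change -0.66, standard error 0.11, edgeR adjusted p = 0.00045). PSMD6, another lid subunit, had 125, 130 and 130 CPM against 82.5, 93.8 and 80.8 CPM (log2 fold change -0.58, standard error 0.09, edgeR adjusted p = 0.00018). Neither gene had a GLCC1 siRNA library within reach of the controls. The ubiquitin receptor PSMD4 had a log2 fold change of -0.43, the large scaffold subunits PSMD1 and PSMD2 had -0.38 and -0.30, and the lid subunits PSMD7, PSMD8, PSMD11 and PSMD13 had -0.29, -0.33, -0.35 and -0.28. PSMD12 and PSMD14 were not called, at -0.14 and -0.09. PSMD14, the deubiquitinase that strips the chain from the substrate, had 145, 139 and 144 CPM in the controls and 130, 135 and 136 CPM in the GLCC1 siRNA libraries, so the groups were separate by a small step.

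The assembly chaperones were mixed. PSMD5, a chaperone of the ATPase ring, had 121, 114 and 114 CPM in the controls and 84.3, 90.4 and 77.6 CPM in the GLCC1 siRNA libraries (log2 fold change -0.47, standard error 0.09, edgeR adjusted p = 0.00099). The other chaperones of that ring were not called, PSMD9 with a log2 fold change of -0.29 at 7.19 CPM and PSMD10 with 0.18. Among the chaperones of the core, PSMG3 fell by 0.39 on the log2 scale, PSMG2 stood at -0.07 and PSMG4 at 0.27 (edgeR adjusted p = 0.14). PSMG1, the partner of PSMG2, had 59.6, 54.7 and 59.0 CPM in the controls and 68.8, 76.3 and 64.1 CPM in the GLCC1 siRNA libraries (log2 fold change 0.27, standard error 0.09, edgeR adjusted p = 0.042). The rise of PSMG1 was no longer called in 4 of the 6 fits that left out 1 library.

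The activators split. PSME1 and PSME2 encode the alpha and beta subunits of PA28, which is induced by interferon gamma, and are neighbours on chromosome 14 (chr14:24605372-24608176 and chr14:24612571-24616779 in GRCh37). PSME1 had 123, 121 and 126 CPM in the controls and 152, 167 and 150 CPM in the GLCC1 siRNA libraries (log2 fold change 0.34, standard error 0.08, edgeR adjusted p = 0.0057). PSME2 had 71.9, 69.4 and 68.2 CPM against 99.3, 91.0 and 92.5 CPM (log2 fold change 0.43, standard error 0.08, edgeR adjusted p = 0.0013). In both genes the groups lay apart by more than the range within either. PSME3, the nuclear PA28 gamma, had 167, 159 and 163 CPM against 175, 159 and 156 CPM and a log2 fold change of 0.01. PSME4, which encodes the nuclear activator PA200, had 169, 164 and 166 CPM against 135, 142 and 131 CPM and fell by 0.29. PSMF1, the inhibitor PI31, had 103, 106 and 101 CPM against 81.9, 77.7 and 83.2 CPM and fell by 0.35 (edgeR adjusted p = 0.0045). The interferon-inducible activator genes thus stood higher, and the inhibitor and the other called activator lower. The sum of PSME1 and PSME2 was divided by the median CPM of the core 20S subunits, leaving out PSMA2, PSMA6, PSMA8, PSMB10 and PSMB11. The ratio was 1.05 to 1.09 in the controls and 1.53 to 1.91 in the GLCC1 siRNA libraries.

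**Figure D3:**
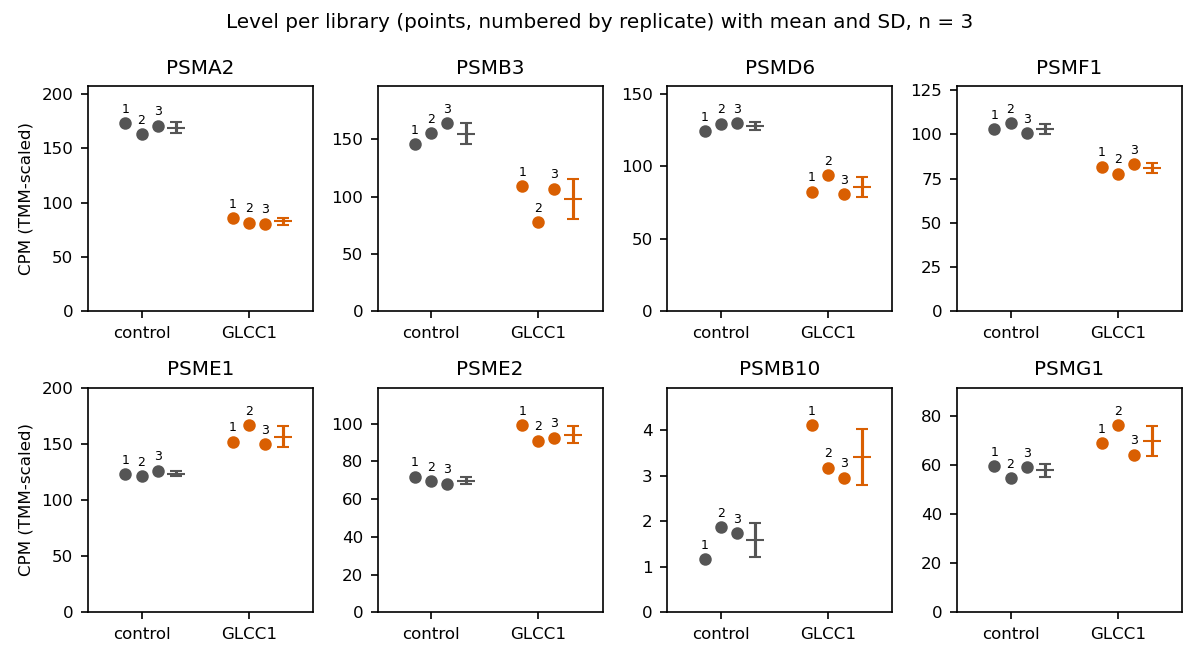
CPM in each of the 6 libraries for PSMA2, PSMB3, PSMD6, PSMF1, PSME1, PSME2, PSMB10 and PSMG1, on axes that start at 0, with points numbered by replicate and the mean and SD of each group beside them (n = 3). The PSMA2 points of the GLCC1 siRNA libraries sit between 80.4 and 85.7 CPM, below the control points at 163 CPM or more, and those of PSME1, PSME2 and PSMB10 sit above their controls.

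The promoters of PSMB10, PSME1 and PSME2 share letters that most members lack. Promoters of 40 of the 46 members, 250 bases before to 50 after the RefSeq start in GRCh38.p14, were searched on both strands for 6 motifs. PSMA7, PSMB1, PSMB6, PSMB7, PSMD4 and PSMG3 had no entry. The interferon-stimulated response element, searched as GAAA, any 2 bases and GAAA, was in 6 members (15%) and in 3.65% of all 27305 promoters. The 6 were PSMB10, PSME1, PSME2, PSMG4, PSMA4 and PSMB4, and 4 of them held the same form, GAAAGCGAAA, which was in 30 of all promoters (0.11%). The sequences are shown because the called members with that form, PSMB10, PSME1 and PSME2, are those that rose in every alternative fit. Capitals mark the motif, each sequence reads 5′ to 3′ on the strand of its gene, and in PSME1 the motif is on the other strand.
PSME1 promoter, chr14:24135944-24136243, plus strand: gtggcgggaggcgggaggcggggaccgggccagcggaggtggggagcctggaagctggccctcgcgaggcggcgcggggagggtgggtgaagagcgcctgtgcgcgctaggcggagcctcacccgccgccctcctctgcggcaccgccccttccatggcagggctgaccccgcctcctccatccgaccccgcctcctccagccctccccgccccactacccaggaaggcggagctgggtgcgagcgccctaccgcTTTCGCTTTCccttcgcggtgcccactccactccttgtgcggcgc
PSME2 promoter, chr14:24146561-24146860, minus strand: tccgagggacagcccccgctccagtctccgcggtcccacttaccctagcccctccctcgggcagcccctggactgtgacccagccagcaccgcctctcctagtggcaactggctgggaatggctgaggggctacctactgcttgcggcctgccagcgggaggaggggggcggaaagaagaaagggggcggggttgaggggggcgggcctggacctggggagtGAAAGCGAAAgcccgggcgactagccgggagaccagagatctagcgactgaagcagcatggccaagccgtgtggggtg
PSMB10 promoter, chr16:67936801-67937100, minus strand: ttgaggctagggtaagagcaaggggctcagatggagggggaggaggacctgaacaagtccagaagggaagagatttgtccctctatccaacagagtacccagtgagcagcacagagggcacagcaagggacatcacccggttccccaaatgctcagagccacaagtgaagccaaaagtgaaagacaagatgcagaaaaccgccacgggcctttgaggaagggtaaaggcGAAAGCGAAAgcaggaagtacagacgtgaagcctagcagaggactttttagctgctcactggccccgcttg
PSMG4 promoter, chr6:3258899-3258938, plus strand: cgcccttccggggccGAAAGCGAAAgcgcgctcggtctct
PSMA4 promoter, chr15:78540155-78540189, plus strand: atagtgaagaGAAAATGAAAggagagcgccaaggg
PSMB4 promoter, chr1:151399490-151399529, plus strand: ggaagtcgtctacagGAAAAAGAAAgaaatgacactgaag
Counted from the transcription start, the shared form began at -21 in PSMB10, -28 in PSME2, -33 in PSMG4 and 5 in PSME1. The variants of PSMA4 and PSMB4 began at -240 and -68. Of the 6 members with the motif, 3 were called higher, and the median log2 fold change of the 6 was 0.30. PSMA4 was called lower (-0.30), and PSMB4 (-0.21) and PSMG4 (0.27) were not called. Of the 32 other tested members with a promoter, 1 was called higher, and their median was -0.29. Over all tested genes, 14.9% were called higher and 16.7% lower. Outside the members, 5 of 18 tested genes with GAAAGCGAAA in the promoter rose and 3 fell, with a median log2 fold change of 0.10. Of the 11491 tested genes without it, 2083 (18.1%) rose and 2687 fell, with a median of -0.03. The exact form was singled out after its members' values were known. A match describes letters and not bound sites.

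The antioxidant element and the CCAAT box were in members called in either direction, and the ETS site, the gamma-activated site and the E-box were in no member that rose. The antioxidant response element core TGACNNNGC, which factors of the NFE2L1 family can bind, was in 12 members (30%) and 13.6% of all promoters. It stood in the falling genes PSMB3, PSMC4, PSMD1, PSMD3, PSMD5 and PSME4, in the risen PSME1, PSME2 and PSMG1, and in PSMD9, PSMD12 and PSMG2, which were not called. The ETS site CCGGAAG was in 13 members (32.5%) and 10.7% of all promoters, the CCAAT box in 18 (45%) and 35.7%, the gamma-activated site TTCNNNGAA in 5 (12.5%) and 7.88%, and the E-box CACGTG, the site of c-Myc, in 3 (7.5%) and 7.43%. PSMB3, PSMD9 and PSME3 held the E-box, and of these PSMB3 alone was called. PSMA2, the member with the largest fall, held a gamma-activated site and a CCAAT box.

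The 7-base word ACCTTGA stands in the reference genome within the target of GLCC1 siRNA 1 and is the word that the seed of its guide strand would pair with. It was in the 3′ UTR of 1 of 45 members that could be searched, PSMF1, and of 12.0% of 11342 genes. The 3′ UTRs of members were short, with a median of 378 nt against 1339 nt. Over those 11342 genes, the median log2 fold change was -0.20 with the word and -0.04 without it. These 2 sets were not matched for UTR length, and an effect of the seed was not tested. Which siRNA was sequenced was not stated in words. The genotype labels give siRNA1, whereas the titles end in siRNA1, siRNA2 and siRNA3, so the use of siRNA 1 in every library is uncertain. The word occurs at 2 places in PSMF1, in capitals here with 10 bases on each side, in GRCh37 on the plus strand.
PSMF1 site, chr20:1147308-1147334: gaagccaaccACCTTGAaacctttaga
PSMF1 site, chr20:1147567-1147593: aacttttaggACCTTGAtgtgaggaaa
The 23 other members that fell held no such word in the UTR searched. Outside the members, the UTR of DDI2, a protease gene of the list of 28 other proteasome genes, held it at 2 places.

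Levels were compared between genes per kilobase of the canonical transcript in GENCODE 44. In the controls, PSMB1 was highest at 267 ± 11.8 CPM per kilobase (SD, n = 3). PSMB7 at 206 ± 10.9, PSMB3 at 203 ± 12.1 and PSMB4 at 193 ± 5.75 followed, each less than 1 SD of PSMB3 from its neighbour, whereas PSMB1 stood above them by several SDs. PSMB10 was lowest of the expressed members at 1.63 ± 0.39 CPM per kilobase. PSMD9, PSMC1 and PSMA6 were the next lowest, and the copies of PSMC1 and PSMA6 are not counted in these levels. In GENCODE 44, 83.2% of the exon bases of PSMC1 also overlap NRDE2 on the opposite strand, and the strand setting of the counting was not stated. In the order of the 44 levels, PSMA2 went from place 11 in the controls to place 22 in the GLCC1 siRNA libraries, PSME1 from 9 to 4 and PSME2 from 16 to 9.

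**Figure D4:**
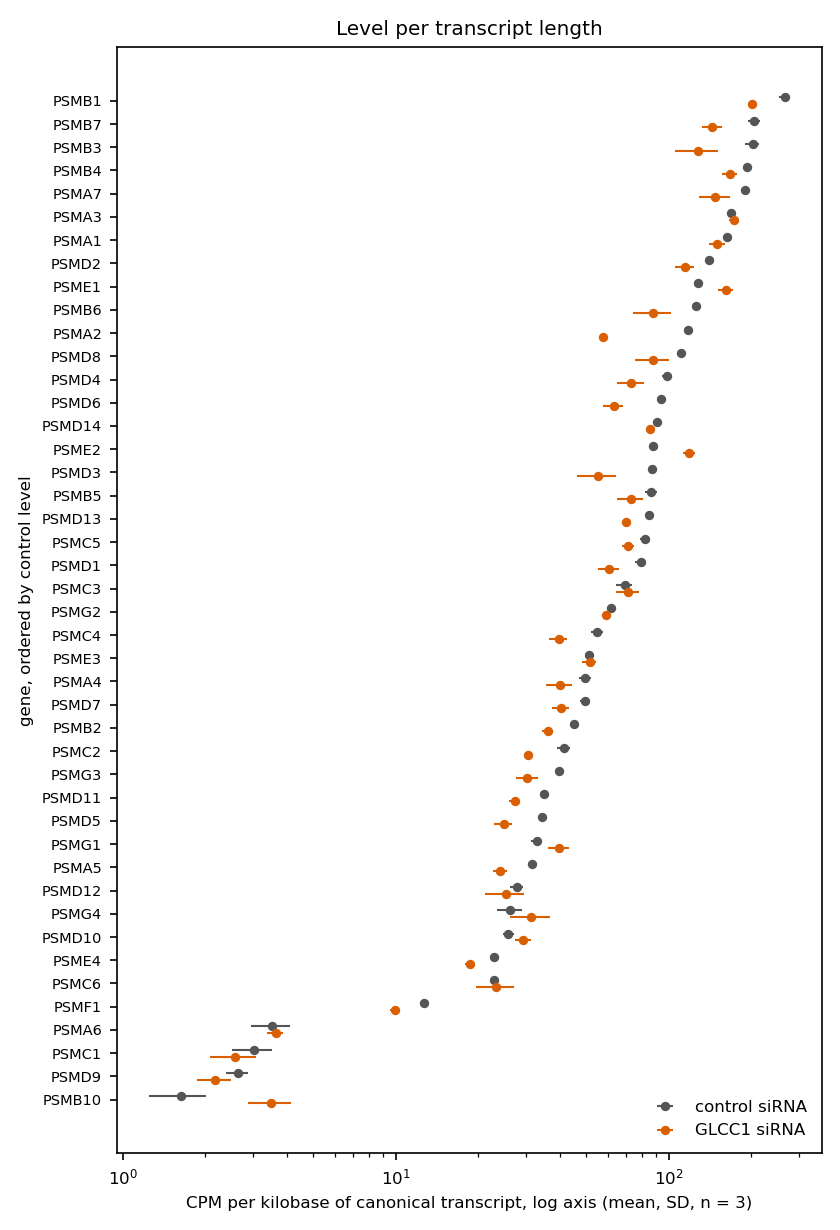
CPM per kilobase of transcript for the expressed members, on a log axis, as the control mean and the GLCC1 siRNA mean with bars for the SD (n = 3 each), ordered by the control level. PSMB1 is highest in both groups, PSMA2 drops from 118 to 57.5, and PSMB10, PSMC1, PSMA6 and PSMD9 lie far below the others.

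Genes that serve the proteasome without being named as subunits were examined as a list of 28: receptors, shuttles, assembly factors, deubiquitinases, ubiquitin genes and regulators of transcription. Of these 5 rose (17.9%), 8 fell (28.6%) and 15 were not called. All 28 had a mean of 10 CPM or more, and the shares were near the 20.1% and 29.8% of all genes at that level. NFE2L1 rose from 170 ± 3.70 to 235 ± 12.8 CPM (SD, n = 3; log2 fold change 0.47, standard error 0.08, edgeR adjusted p = 0.00044). DDI2, the protease that activates its product, fell by 0.58, and VCP, the segregase that extracts it from the membrane of the endoplasmic reticulum, fell from 500 ± 6.62 to 319 ± 24.1 CPM (log2 fold change -0.65, standard error 0.08, edgeR adjusted p = 3.9e-05). Of the 32 tested core and cap subunits, 20 fell, beside 29.8% of all genes at 10 CPM or more. A link between the level of NFE2L1 and that of the subunits was not tested. The ubiquitin receptor ADRM1 fell by 0.75, the small subunit gene SHFM1 by 0.28, the core assembly factor POMP by 0.43, the shuttle UBQLN1 by 0.38 and ZFAND2A by 0.53. The proteasome activator ZFAND5 rose by 0.59, the ubiquitin ligase UBE3C by 0.30 and the VCP cofactor UFD1L by 0.26. The calls of UFD1L (edgeR adjusted p = 0.048), SHFM1, ZFAND2A and UBE3C were lost in 5, 4, 2 and 1 of the 6 fits that left out 1 library, and those of UFD1L and SHFM1 also with the replicate block. Without GLCC1 siRNA replicate 2, 8 of the list rose and 14 fell, where 21.6% of all genes rose and 22.6% fell. Without control siRNA replicate 2, 3 of the list rose, where 10.7% of all genes rose. The shares beside these fits are over all tested genes and were not taken at 10 CPM or more. In the main fit, 16.7% of all tested genes fell and 14.9% rose, less than at that level.

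GLCC1 siRNA replicate 2 differed from its group by gene. Its log2 level minus the mean of replicates 1 and 3 ran from -0.47 for PSMB3 to 0.42 for PSMC1 over the 44 members, 26 of them below 0. Across members, the difference had a correlation with the GC content of the transcript of r = -0.67 (Spearman rho -0.74), given as a description of genes that share these libraries. The log2 fold change itself had r = 0.11 with GC content (rho -0.10). Without that library, 31 members fell and 5 rose, and the median of the members was -0.27. Of all tested genes, 22.6% then fell and 21.6% rose, and the shares at 10 CPM or more were not taken. PSMG4 then rose as well (log2 fold change 0.39, edgeR adjusted p = 0.00025). PSMA2 ran from -1.06 to -1.01, PSME2 from 0.40 to 0.46, PSME1 from 0.29 to 0.37 and PSMB10 from 0.92 to 1.22 when each of the 6 libraries was left out in turn.

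**Figure D5:**
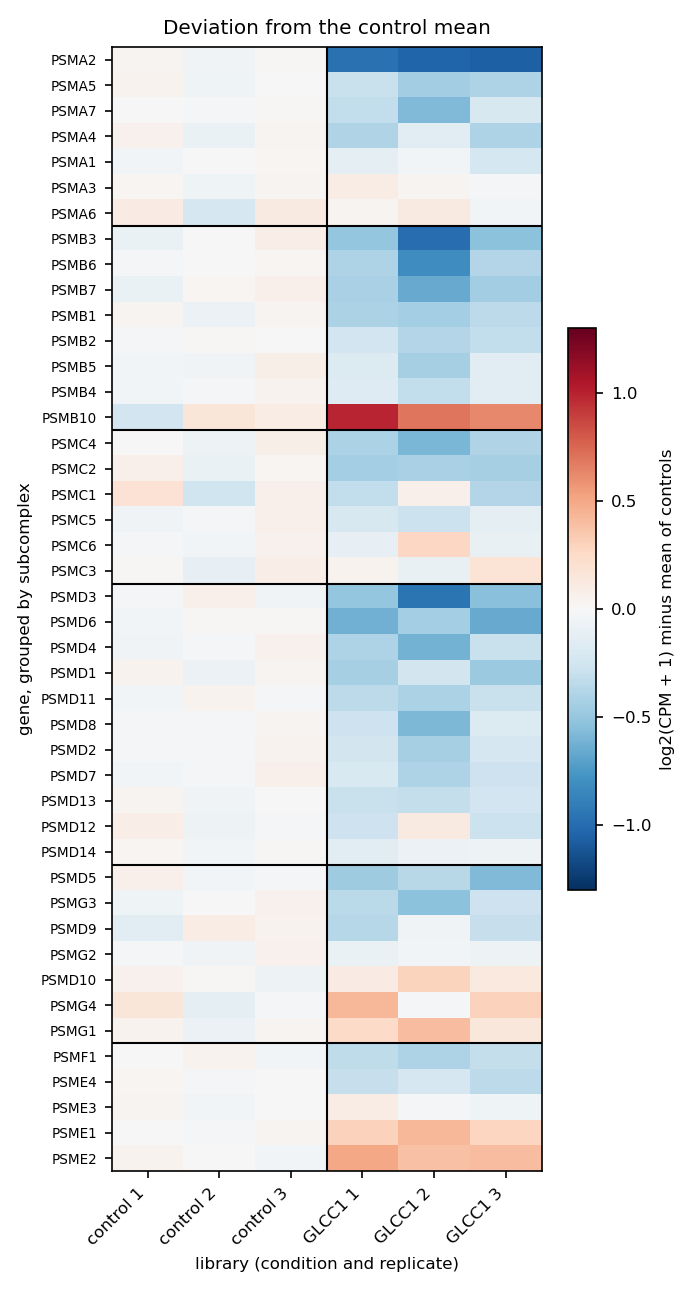
Heat map of each tested member (rows, by role) in each library (columns), coloured by log2(CPM + 1) minus the control mean on a scale from -1.3 to 1.3. The GLCC1 siRNA columns are blue, for lower, in most subunits and red in PSME1, PSME2 and PSMB10, and replicate 2 differs in shade from replicates 1 and 3 in PSMB3, PSMD3 and PSMB6.

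Of the 24 falls, 15 were called in all 12 alternative fits. They were PSMA2, PSMA5, PSMB1, PSMB3, PSMB6, PSMB7, PSMC2, PSMC4, PSMD1, PSMD3, PSMD4, PSMD5, PSMD6, PSMD11 and PSMF1. Of the 4 rises, those of PSMB10, PSME1 and PSME2 were. With library totals as the only scaling, 16 members fell and 6 rose, beside 24 and 4 with the trimmed mean of M values. Of all genes, 12.1% then fell and 20.5% rose, beside 16.7% and 14.9%, and the median of all genes was 0.15 in place of 0.03. The median of the members relative to that of all tested genes was -0.32 under both scalings. Genes at 10 CPM or more, the level of most members, had a lower median (-0.07 in the main fit). Relative to these genes the shift is smaller, and it was not computed for library totals.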

How the data were processed

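The deposited files held 1 library each, as raw counts for every gene symbol. Per the labels and the study's methods, the authors aligned paired reads to hg19 with TopHat2 2.0.11 and counted them with HTSeq in union mode on Ensembl GRCh37. The strand setting was not given in the sources used here. The HTSeq tallies were removed. Of the read pairs on genes, in no gene or in several, 11.2 to 14.2% lay in no gene and 8.19 to 8.89% were ambiguous.

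From these counts, edgeR 4.0.16 in R 4.3.3 (TMM scaling, robust quasi-likelihood test) was fitted to the 23074 genes with at least 5 counts summed over either group, with Benjamini-Hochberg adjustment over all of them and no covariate. CPM used the TMM-scaled totals, and 1 count equalled 0.0521 to 0.0795 CPM. The study used DESeq2, which was run here as an alternative (version 1.42.0). The other alternatives changed the scaling, the filter, the block or left out 1 library. The pipeline was tested on simulated counts with known changes.

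Replicates of a group were not copies: chi-square values per degree of freedom were 1.93 or more. Same-numbered libraries did not deviate together (r = -0.18, -0.32 and -0.01), so no block was used. With 3 libraries against 3, an exact permutation test cannot go below p = 0.1, and intervals of zero counts (3 counts) cover counting error only.

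Values in all 6 libraries were given for the 5 largest called rises (4 were called) and falls, PSME1 to PSME4, PSMF1, PSMB10 and the highest and lowest member of each role by fold change among those at 1 CPM or more on average. Genes of the list of 28 were named when called, apart from some that are counted but not reported by name here. Coordinates and lengths came from GENCODE 44 on GRCh37, in which SHFM1 was not matched, and promoters from RefSeq. Levels per length are CPM per kilobase, not rescaled to TPM. The members and lists were chosen with earlier results of these data known.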

Additional observations from a re-analysis of the deposited data

How the results depend on the processing

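The median log2 fold change of the members moved from -0.29 to -0.17 with library totals as the only scaling and to -0.25 with at least 10 counts in every library. With library totals PSMD14 stood at 0.030 and PSMG2 at 0.057, neither called, the falls of PSMA4, PSMA7, PSMB2, PSMD2, PSMD7, PSMD8, PSMD13 and PSME4 were no longer called, and PSMD10 and PSMG4 were called higher. With 1 library left out in turn, the called falls ran from 16 to 31 and the called rises from 3 to 5. Of the list of 28, the genes that rose ran from 3 to 8 and those that fell from 6 to 14. The shares of all genes called moved as well, from 12.5 to 22.6% for falls and from 10.5 to 21.6% for rises. For the alternative fits, shares are over all tested genes and not over those at the level of most members. In those fits PSMA6 ran from -0.092 to 0.13, PSMC3 from -0.024 to 0.11, PSMC6 from -0.10 to 0.10 and PSME3 from -0.041 to 0.040. The cause of these changes was not tested. With the replicate block, 22 members fell and 3 rose, and 4 of the 28 rose and 7 fell, where 15.2% of all genes fell and 13% rose. The same-numbered libraries did not pair. DESeq2 gave 24 falls and 4 rises, where 15.5% of all genes fell and 13.6% rose. No sum of counts resolves PSMA6 or PSMC1 from its copy, and PSMB10, at 17 to 79 counts per library, has the largest error of the called members.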

Other observations

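Of the antisense genes named after members, PSMD6-AS2 had 20, 18 and 26 counts in the control libraries and 42, 31 and 33 in the GLCC1 siRNA libraries and rose (log2 fold change 0.72, standard error 0.26, edgeR adjusted p = 0.048), while PSMD6 fell. PSMG3-AS1 had 5.55, 5.68 and 6.26 CPM against 8.08, 7.0 and 7.22 CPM and was not called (edgeR adjusted p = 0.072), and PSMD5-AS1 had a log2 fold change of 0.06. Without a stated strand setting, reads of an antisense gene and its partner cannot be told apart. The pseudogene PSMA6P1 fell (log2 fold change -0.51, standard error 0.12, edgeR adjusted p = 0.0049), which cannot be told apart from a fall of PSMA6 itself.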
